A study of Arabidopsis thaliana with 12 samples.

Results

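The 10 genes described here encode the enzymes that complete, and those that undo, the synthesis of gibberellin in Arabidopsis thaliana: KAO1, KAO2, GA20OX1, GA20OX2, GA20OX3, GA3OX1, GA3OX2, GA2OX1, GA2OX2 and GA2OX6. They were taken by identifier from the 36795 entries of the count table, with no threshold on a measured value, from a list drawn up with earlier results of these data known. RNA was sequenced from seeds of 3 lines in 6 groups of 2 libraries each, which the labels call biological replicates. The lines amiR-SYD-1 and amiR-SYD-2, called SYD1 and SYD2 here, carry artificial microRNAs named for SPLAYED (SYD), the gene of a chromatin-remodelling ATPase, and amiR-HsMYO, called HsMYO, is the line labelled as the wild-type control. Neither the promoter of the microRNAs, nor whether each line is 1 transformant, nor the number of seeds pooled is stated in the labels. Each line was sown on MS medium with 2 µM (±)-abscisic acid (ABA, a hormone that arrests germinating seeds) or on medium with 0.002% ethanol, its solvent. After 3 days of darkness at 4 °C the sown seeds had 24 h under a cycle of 16 h light and 8 h dark, so that ABA was present from sowing. The series asks whether SYD is needed for the growth arrest that ABA brings about, and the gibberellin genes enter that question because gibberellin and ABA act against each other in germination.

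Gibberellins are made from a diterpene that the KAO enzymes, cytochrome P450 enzymes of the endoplasmic reticulum, oxidise to the first gibberellin. GA20OX enzymes then remove a carbon by repeated oxidation, and GA3OX enzymes add the hydroxyl group that makes the hormone active. GA2OX enzymes hydroxylate gibberellins at another carbon and thereby inactivate them. In germinating Arabidopsis seeds, GA3OX1 and GA3OX2 are known to rise with light. Active gibberellin lowers GA3OX1 and GA20OX transcripts through negative feedback while raising GA2OX transcripts. A transcript count shows neither enzyme activity nor hormone level.

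On the TAIR10.1 reference, KAO1 (AT1G05160, named CYP88A3 there) spans chr1:1487378-1491005 and KAO2 (AT2G32440) chr2:13774588-13778026. GA20OX1 (AT4G25420) lies at chr4:12990851-12992585, GA20OX2 (AT5G51810) at chr5:21055179-21056881 and GA20OX3 (AT5G07200) at chr5:2243553-2245339. GA3OX1 (AT1G15550) lies at chr1:5344388-5346342 and GA3OX2 (AT1G80340) at chr1:30200466-30202349. GA2OX1 (AT1G78440) lies at chr1:29511561-29513100, GA2OX2 (AT1G30040) at chr1:10537457-10540044 and GA2OX6 (AT1G02400) at chr1:486800-489651. KAO1 alone among the 10 overlaps another annotated gene, by 32 exon bases on its own strand. No stretch of 50 bases of any of the 10 occurs elsewhere in the genome, so that the closest relatives (KAO1 and KAO2 with 79.6% identical aligned coding bases, GA20OX1 and GA20OX2 with 79.4%, GA3OX1 and GA3OX2 with 76.5%) remain separable by reads.

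The 250 bases before the annotated start are shown for GA3OX1, whose ABA response differed between the lines, and for GA20OX2 and GA20OX3, which stood furthest above HsMYO in the SYD lines in ethanol and were picked for that after their values were seen. Each is written from 5′ to 3′ on the strand of its gene, which is the minus strand for all 3, and was read from the RefSeq TAIR10.1 genome. Capitals mark the letters of searched motifs.
GA3OX1 (chr1:5346343-5346592): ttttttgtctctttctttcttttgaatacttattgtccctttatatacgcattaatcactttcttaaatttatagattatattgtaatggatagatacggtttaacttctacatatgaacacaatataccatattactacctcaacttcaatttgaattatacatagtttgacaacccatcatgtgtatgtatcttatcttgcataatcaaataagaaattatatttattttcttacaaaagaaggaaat
GA20OX2 (chr5:21056882-21057131): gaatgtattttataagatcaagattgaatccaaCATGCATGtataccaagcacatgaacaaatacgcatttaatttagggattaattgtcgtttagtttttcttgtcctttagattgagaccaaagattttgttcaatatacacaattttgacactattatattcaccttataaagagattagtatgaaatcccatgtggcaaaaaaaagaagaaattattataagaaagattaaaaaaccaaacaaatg
GA20OX3 (chr5:2245340-2245589): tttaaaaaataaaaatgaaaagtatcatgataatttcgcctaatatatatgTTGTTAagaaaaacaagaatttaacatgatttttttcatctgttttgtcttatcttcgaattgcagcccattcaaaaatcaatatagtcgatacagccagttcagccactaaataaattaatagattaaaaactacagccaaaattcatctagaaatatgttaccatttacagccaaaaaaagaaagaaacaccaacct

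The motifs searched on both strands were ACGTG, the core of the ABA-responsive element, CATGCA, the RY element bound by seed maturation factors, TAACAA, a gibberellin-responsive element, and CACGTG, the G-box, which contains ACGTG. Among 27443 promoters of the same length, ACGTG was present in 22.9%, CATGCA in 8.43%, TAACAA in 30.8% and CACGTG in 6.49%. GA20OX2 held CATGCA at -217 and its reverse complement at -215, an overlapping pair in 1 run of letters, and GA2OX6 held the same pair at -189 and -187. TAACAA, read on either strand, was found at -199 in GA20OX3, at -25 in KAO1 and at -89 in KAO2, and ACGTG at -136 in GA2OX2. The windows of GA3OX1, GA20OX1 and GA2OX1 held none of these letters, which says nothing about binding there or further away. A match of this kind is a description of the letters.

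Total counts per library ran from 18713555 to 30012796, and 3 counts were worth 0.1 to 0.16 CPM (counts relative to library size, scaled here by the TMM factors of edgeR). Of the 36795 entries, 19612 passed the filter on low counts and were tested, among them 9 of the 10 oxidase genes. GA2OX1 did not pass. The target of the microRNAs was checked first: SYD had 126 to 153 CPM in the 4 SYD libraries on ABA, against 196 and 230 CPM in HsMYO, and 98.6 to 108 CPM in ethanol, against 185 and 178 CPM in HsMYO. SYD differed from HsMYO by -0.58 ± 0.08 on ABA (log2, mean of the SYD lines minus HsMYO ± SE; adjusted p = 3.7e-05, edgeR quasi-likelihood test with Benjamini-Hochberg adjustment over the 19612 genes, as for every adjusted p here) and by -0.81 ± 0.08 in ethanol (adjusted p = 1.4e-06). The p-values measure the spread between the libraries within a group, and not the spread between transformed lines. The 5 seed markers were detected in every library, with sums of 32200 to 33300 CPM in the SYD lines against 20800 to 24100 CPM in HsMYO on ABA, and of 28000 to 34300 CPM against 20200 to 21600 CPM in ethanol. Nearly all of that sum was ICL and MLS, the glyoxylate-cycle genes by which seedlings turn seed oil into sugar. These are whole seeds, so fewer cells of a type and less RNA per cell cannot be told apart in any result below.

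Levels between genes were compared in TPM, which divides counts by exon length before scaling each library to the same total. GA3OX2, GA3OX1's partner in the last activating step, was the most abundant of the 10 transcripts in each ethanol group, with means of 140 TPM in SYD1, 137 TPM in SYD2 and 148 TPM in HsMYO. KAO2 was second there, with 65.6, 69.0 and 50.9 TPM, and the GA2OX transcripts were the scarcest. On ABA GA3OX2 was also first in the SYD lines (109 TPM in each, KAO2 having 88.4 TPM in SYD1 and 80.1 TPM in SYD2), whereas KAO2 (65.8 TPM) and GA3OX2 (60.4 TPM) came close to each other in HsMYO. Summed by class, GA3OX1 and GA3OX2 together had 158 ± 2.5 TPM in SYD1 and 155 ± 0.367 TPM in SYD2 in ethanol, against 173 ± 6.76 TPM in HsMYO (mean ± SD, n = 2 for these sums). On ABA they had 119 ± 1.59 and 119 ± 1.12 TPM, against 65.3 ± 2.14 TPM in HsMYO. Thus the HsMYO libraries were highest in ethanol and lowest on ABA. The 3 GA20OX transcripts summed to 52.4 ± 5.72, 32.8 ± 1.21 and 20.4 ± 1.9 TPM in SYD1, SYD2 and HsMYO on ABA and to 35.8 ± 1.56, 28.6 ± 3.3 and 13.4 ± 0.115 TPM in ethanol. In both treatments SYD1 was highest and HsMYO lowest, with no overlap between the lines. KAO1 and KAO2 summed to 114 ± 2.22, 105 ± 2.5 and 94.3 ± 9.97 TPM on ABA and to 84.5 ± 1.19, 89.1 ± 1.94 and 69.6 ± 4.14 TPM in ethanol. HsMYO was again lowest in both treatments, and SYD1 and SYD2 changed places. The inactivating genes GA2OX1, GA2OX2 and GA2OX6 summed to 2.81 ± 0.473, 2.39 ± 0.149 and 3.67 ± 0.367 TPM on ABA. In ethanol they summed to 5.7 ± 0.187, 3.69 ± 1.16 and 3.22 ± 0.258 TPM, where SYD2 overlapped HsMYO. Each class sum holds only the listed genes, and other genes of the same families are left out.

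**Figure D1:**
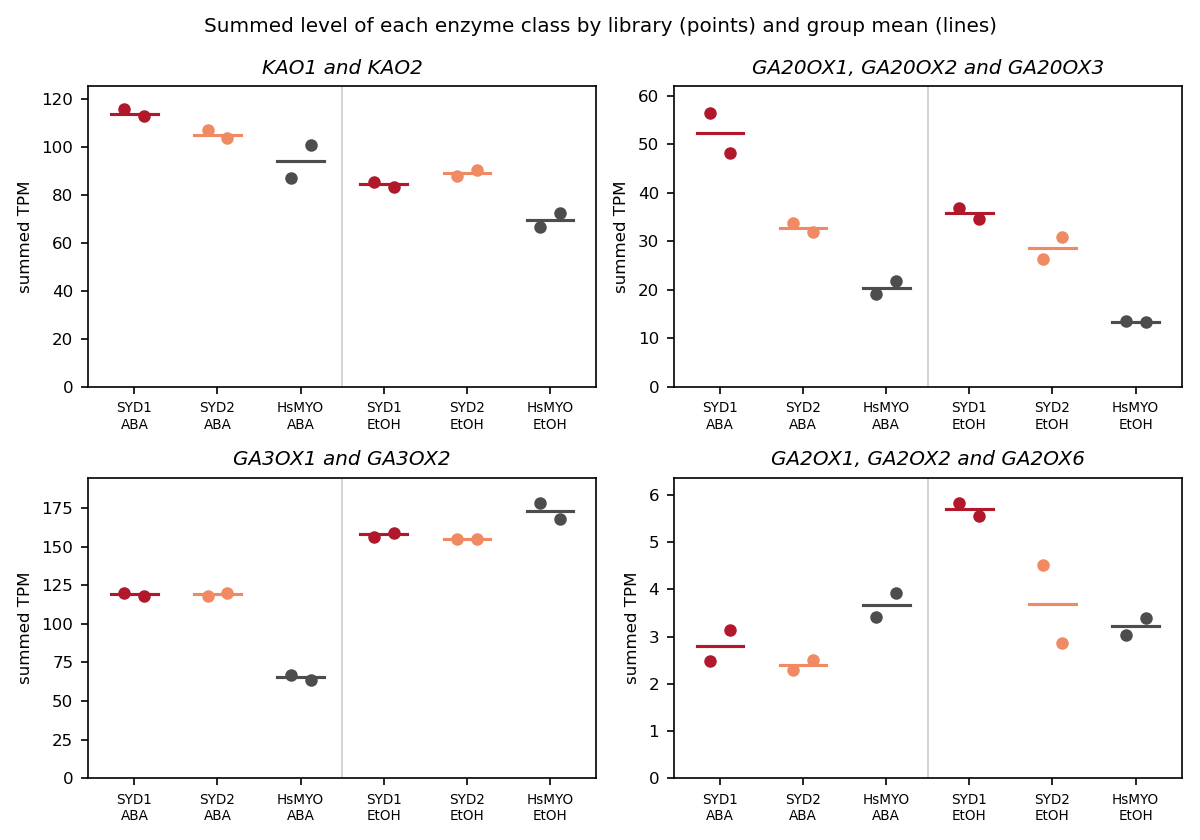
Summed TPM of the 4 enzyme classes in each library, with only the listed genes of each class counted. Points are the 2 libraries of a group and lines their mean, with the ABA groups left of the ethanol groups; in the GA3OX panel HsMYO is the lowest group on ABA (65.3 TPM) and the highest in ethanol (173 TPM), while in the GA20OX panel both SYD lines lie above HsMYO in both treatments.

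Of the listed GA3OX and KAO genes, 1 of each pair carried most of the transcript. The shares given next are of the TPM summed over the listed genes of a class. Other genes of the same families are left out. GA3OX2 made up 92.0%, 91.6% and 92.5% of GA3OX TPM in SYD1, SYD2 and HsMYO on ABA, and 88.8%, 88.4% and 85.8% in ethanol. KAO2 made up 77.3%, 76.0% and 69.9% of KAO TPM on ABA and 77.7%, 77.5% and 73.1% in ethanol, so that the SYD libraries had a higher KAO2 share than the HsMYO libraries in each treatment. GA20OX3 held 64.7%, 56.9% and 56.7% of GA20OX TPM on ABA. In ethanol the 3 GA20OX genes were closer to each other, GA20OX3 having 48.2%, 44.6% and 43.8% and GA20OX1 27.2%, 31.7% and 36.3%. Of the listed GA2OX transcripts, GA2OX2 was the main one in every group.

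**Figure D2:**
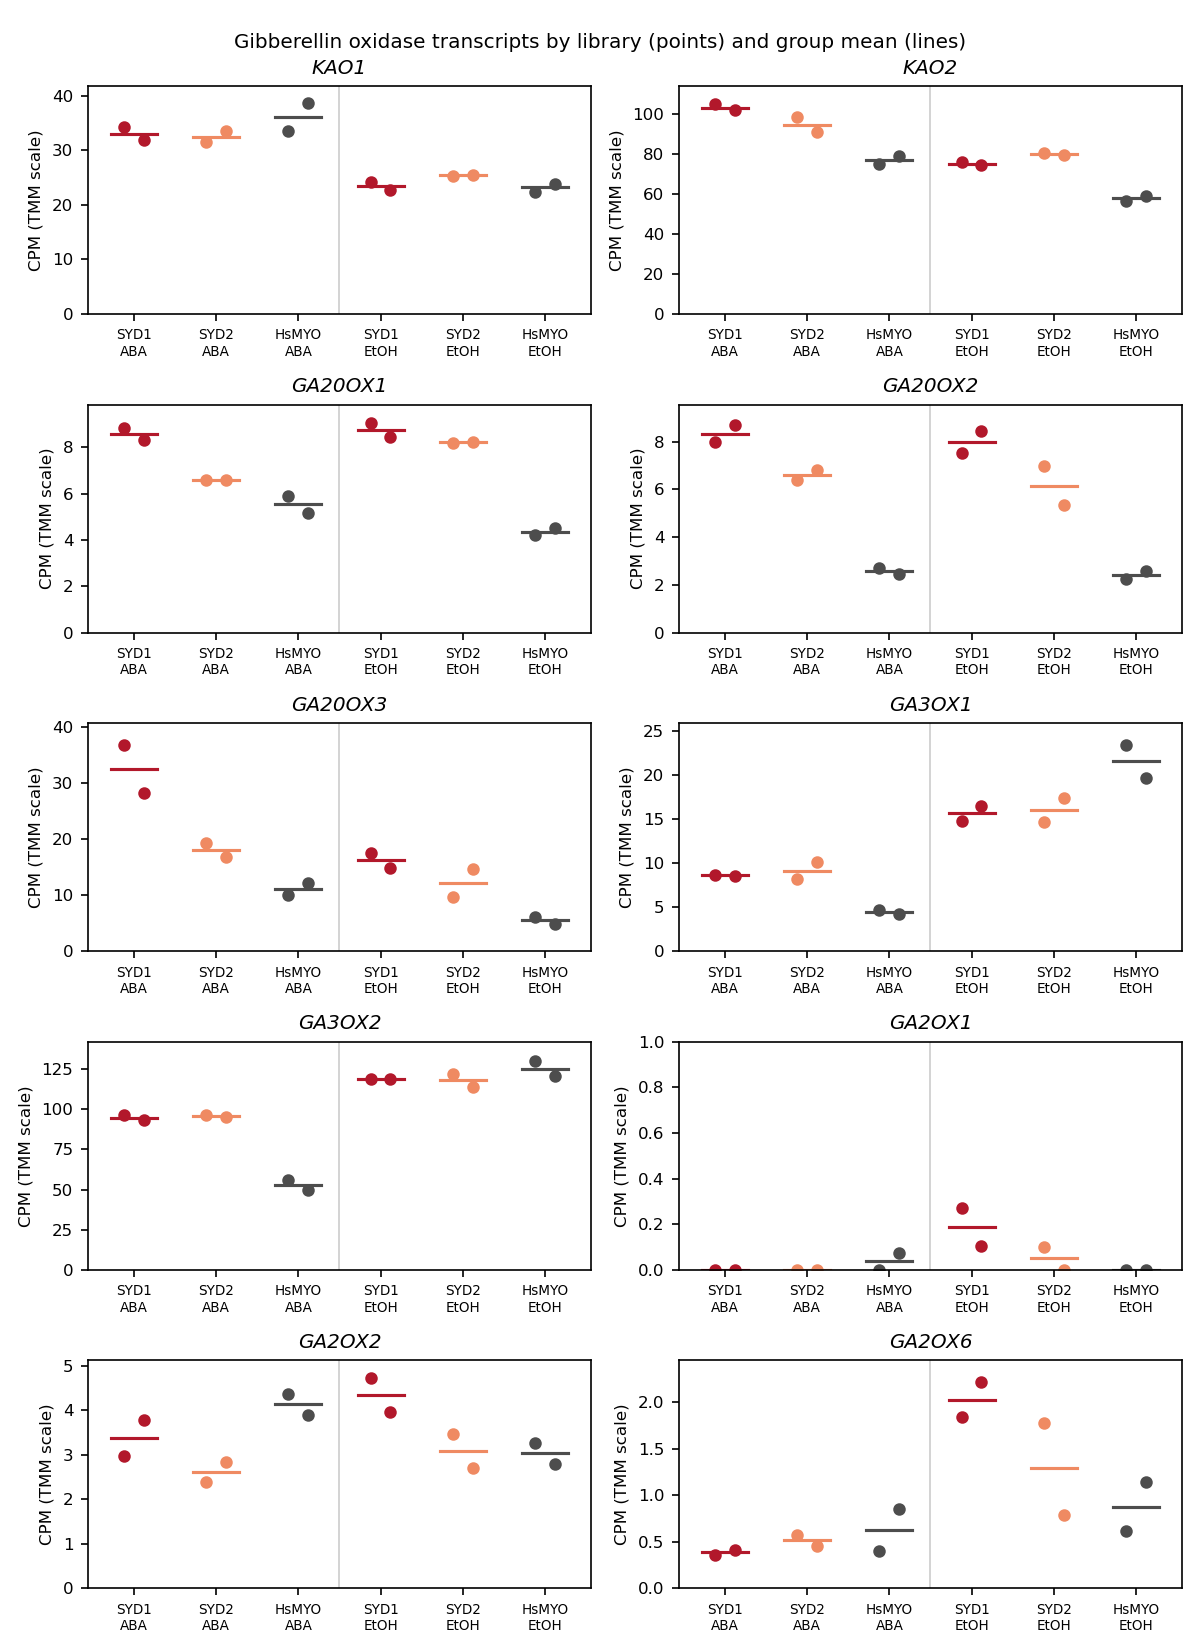
TMM-scaled CPM of the 10 genes in each library, with 1 panel and 1 linear scale per gene. Points are libraries and lines group means; GA20OX2 in the SYD libraries (5.36 to 8.69 CPM) never meets its HsMYO libraries (2.25 to 2.72 CPM), and GA2OX1 is at 0.271 CPM or less in every library.

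The first comparison asks what ABA did to these transcripts within each line. In HsMYO, GA3OX1 and GA3OX2 of the activating step fell, GA3OX1 most, while GA20OX3 and both KAO genes rose. The same 5 genes were called in the same direction in SYD1 and SYD2, with smaller decreases of GA3OX1 and GA3OX2. GA2OX6, an inactivating enzyme gene, fell in SYD1. Of the 9 tested genes, 3 rose and 3 fell in SYD1, 3 rose and 4 fell in SYD2, and 4 rose and 2 fell in HsMYO. Of all tested genes, 46.9% were called in SYD1 (21.7% higher and 25.2% lower), 42.9% in SYD2 (19.4% and 23.6%) and 54.0% in HsMYO (26.9% and 27.1%). Calls were thus common among all genes, and the counts of 6 or 7 in 9 were not tested against these shares. The median change of the 9 was -0.03, -0.22 and 0.35 in SYD1, SYD2 and HsMYO, beside 0.0, 0.0 and 0.02 for all tested genes. Since KAO and GA20OX3 transcripts moved up and those of GA3OX1 and GA3OX2 down, the members did not move as 1 group.

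For the KAO step, KAO1 had 34.3 and 31.8 CPM on ABA and 24.2 and 22.8 CPM in ethanol in SYD1. SYD2 had 31.5 and 33.5 CPM on ABA and 25.2 and 25.5 CPM in ethanol, and HsMYO had 33.6 and 38.6 CPM on ABA and 22.4 and 23.9 CPM in ethanol. In each line both ABA libraries lay above both ethanol libraries. The increases of KAO1 were 0.49 ± 0.09 (log2 ± SE, adjusted p = 0.00022), 0.36 ± 0.08 (adjusted p = 0.0025) and 0.64 ± 0.08 (adjusted p = 8.2e-06) in SYD1, SYD2 and HsMYO. KAO2 had 105 and 102 CPM on ABA and 75.9 and 74.3 CPM in ethanol in SYD1, and 98.2 and 90.8 CPM on ABA and 80.5 and 79.6 CPM in ethanol in SYD2. In HsMYO it had 74.8 and 78.7 CPM on ABA and 56.4 and 59.1 CPM in ethanol, again without overlap between treatments. KAO2 rose by 0.46 ± 0.07 (adjusted p = 3.1e-05), 0.24 ± 0.06 (adjusted p = 0.0071) and 0.41 ± 0.07 (adjusted p = 7.5e-05) in SYD1, SYD2 and HsMYO. The call in SYD2 ended without replicate 1 of SYD2 on ABA (0.18, adjusted p = 0.096; 0.0036 to 0.096 over its 17 alternatives).

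Of the GA20OX genes, which make the precursors of active gibberellin, GA20OX3 had 36.8 and 28.2 CPM on ABA and 17.5 and 14.8 CPM in ethanol in SYD1. SYD2 had 19.3 and 16.8 CPM on ABA and 9.68 and 14.7 CPM in ethanol, and HsMYO had 9.98 and 12.2 CPM on ABA and 6.09 and 4.88 CPM in ethanol. The ABA libraries were the higher ones in each line, with the narrowest gap in SYD2. GA20OX3 rose 2.01-fold in SYD1 (1.01 ± 0.17, adjusted p = 0.00016), 1.46-fold in SYD2 (0.54 ± 0.18, adjusted p = 0.021) and 2.02-fold in HsMYO (1.02 ± 0.2, adjusted p = 0.0006). Without replicate 1 of SYD2 on ABA (0.45, adjusted p = 0.14) or in ethanol (0.3, adjusted p = 0.21) the call in SYD2 ended, and without replicate 2 in ethanol the change was 0.9 (adjusted p from 4.3e-06 to 0.21 over 17 alternatives). GA20OX2 did not change detectably in any line. It differed by 0.06 (95% interval -0.25 to 0.37) in SYD1, 0.11 (-0.2 to 0.43) in SYD2 and 0.1 (-0.3 to 0.51) in HsMYO. GA20OX1 had 8.85 and 8.32 CPM on ABA and 9.04 and 8.46 CPM in ethanol in SYD1, groups that overlap. It had 6.57 and 6.58 CPM on ABA and 8.2 and 8.24 CPM in ethanol in SYD2, and 5.91 and 5.18 CPM on ABA and 4.19 and 4.53 CPM in ethanol in HsMYO. The ABA libraries were thus lower in SYD2 and higher in HsMYO.

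Both GA20OX1 calls sat at the threshold. The decrease in SYD2 was -0.32 ± 0.12 (adjusted p = 0.042; 0.032 to 0.16 over 17 alternatives) and was lost in 13 of them, with DESeq2, without the low-count filter, with only the groups compared, and without any 1 library other than those of HsMYO on ABA, although the size stayed between -0.33 and -0.31. The increase in HsMYO was 0.35 ± 0.13 (adjusted p = 0.034; 0.028 to 0.21 over 17 alternatives) and was lost in 8 of them. These were DESeq2 (0.32), no low-count filter (0.31), only the groups compared (0.33), and the fits without replicate 1 of HsMYO on ABA (0.24), replicate 1 (0.29) or 2 (0.4) of HsMYO in ethanol, replicate 1 of SYD1 on ABA (0.32) or replicate 1 of SYD2 in ethanol (0.32).

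At the activating step, GA3OX1 had 8.69 and 8.55 CPM on ABA and 14.8 and 16.5 CPM in ethanol in SYD1. SYD2 had 8.16 and 10.1 CPM on ABA and 14.7 and 17.4 CPM in ethanol, and HsMYO had 4.64 and 4.22 CPM on ABA and 23.5 and 19.7 CPM in ethanol. ABA libraries were the lower ones in every line, and the gap was widest in HsMYO because its ethanol libraries were the highest and its ABA libraries the lowest of the 12. GA3OX1 fell by 0.86 in SYD1 (adjusted p = 8e-05), 0.82 in SYD2 (adjusted p = 9.4e-05) and 2.28 in HsMYO (adjusted p = 1.2e-09) on the log2 scale. GA3OX2 had 96.5 and 93.2 CPM on ABA and 119 and 119 CPM in ethanol in SYD1, and 96.6 and 95 CPM on ABA and 122 and 114 CPM in ethanol in SYD2. In HsMYO it had 55.7 and 49.4 CPM on ABA and 130 and 121 CPM in ethanol. Again no ABA library reached an ethanol library of its line. GA3OX2 fell by 0.33 in SYD1 (adjusted p = 0.0015), 0.3 in SYD2 (adjusted p = 0.003) and 1.25 in HsMYO (adjusted p = 9.8e-10).

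Of the inactivating genes, GA2OX1 had 0 and 0 counts in SYD1, 0 and 0 in SYD2 and 0 and 2 in HsMYO on ABA, and 5 and 2 in SYD1, 2 and 0 in SYD2 and 0 and 0 in HsMYO in ethanol. At this depth its level could not be told from 0 in most libraries, and it was not tested. GA2OX6 had 0.358 and 0.414 CPM on ABA and 1.84 and 2.22 CPM in ethanol in SYD1, without overlap, which rests on 16 counts on ABA and 76 in ethanol. SYD2 had 0.574 and 0.457 CPM on ABA and 1.78 and 0.791 CPM in ethanol, and HsMYO had 0.403 and 0.851 CPM on ABA and 0.618 and 1.14 CPM in ethanol, where the treatments overlap. GA2OX6 fell 5.19-fold in SYD1 (-2.38 ± 0.48, adjusted p = 0.00084) and was not called in HsMYO (-0.52, 95% interval -1.5 to 0.45). Its call in SYD2 (-1.25 ± 0.47, adjusted p = 0.045; 0.008 to 0.4 over 17 alternatives) was lost in 8 of them. These were DESeq2 (-1.3) and the fits without replicate 1 (-1.42) or 2 (-1.1) of SYD2 on ABA, replicate 1 of SYD2 in ethanol (-0.61), or any 1 library of SYD1 (-1.25 to -1.24); without replicate 2 of SYD2 in ethanol it was -1.77. GA2OX2 was not called in SYD1 (-0.36, 95% interval -0.78 to 0.06), SYD2 (-0.22, -0.67 to 0.22) or HsMYO (0.45, 0.05 to 0.85, adjusted p = 0.0545; 0.049 to 0.27 over 17 alternatives), the last being called with replicate number as a block (0.45) and without replicate 2 of SYD2 in ethanol (0.45).

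Markers of other cells and of the seed's stores also moved with ABA within each line. CO2, a root cortex marker, rose by 2.49 in SYD1, 2.22 in SYD2 and 2.53 in HsMYO (log2; adjusted p at most 2.5e-09). SCR, the other tested marker of root cortex and endodermis, did not rise with it. It was called lower in HsMYO (-0.23) and was not called in SYD1 (0.01) or SYD2 (-0.03). Of the 3 tested endosperm markers, MAN7, for a mannanase, rose by 2.44, 2.46 and 2.65 and EXPA2, for an expansin, by 0.99, 0.87 and 0.94 in SYD1, SYD2 and HsMYO (adjusted p at most 2e-06), and EPR1 rose in SYD2 (0.57, adjusted p = 0.0455) and was not called in SYD1 (0.09) or HsMYO (-0.52). The only tested seed coat marker, MUM2, fell by 0.73, 0.28 and 0.82 (adjusted p at most 0.0077). The storage genes OLEO1 and CRA1 rose in every line, OLEO1 by 4.19, 4.23 and 4.76 and CRA1 by 3.58, 3.79 and 2.47 (adjusted p at most 0.00012). The other seed markers did not all follow them. Over the 5 seed markers, 3 were called higher in SYD1, 3 in SYD2 and 2 in HsMYO, with 0 called lower. The medians of the 5 were 1.45, 1.46 and 0.08. The part of these markers in the ABA changes of the oxidase genes was not tested.

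**Figure D3:**
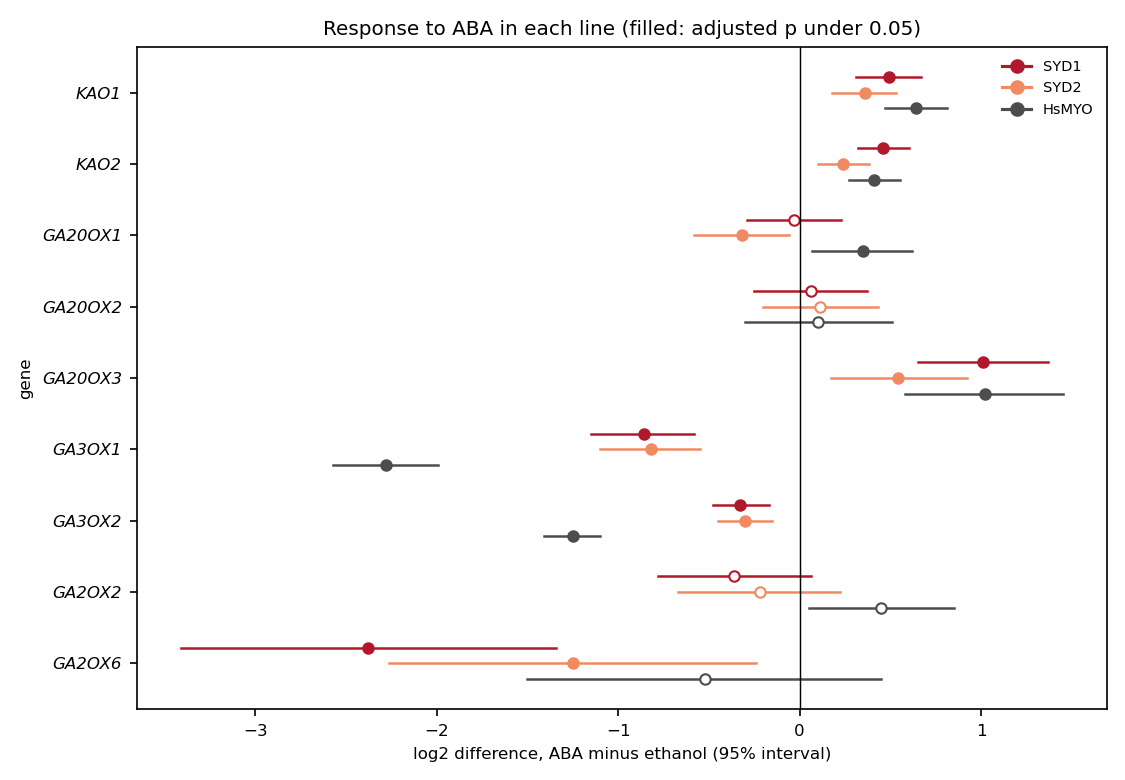
Log2 change on ABA against ethanol for the 9 tested genes in SYD1, SYD2 and HsMYO, with 95% intervals of the edgeR fit. Filled points passed an adjusted p of 0.05; the intervals of GA3OX1 and GA3OX2 in HsMYO (-2.28 and -1.25) lie to the left of those of both SYD lines, while the KAO1, KAO2 and GA20OX3 points lie to the right of 0 in all 3 lines.

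The second comparison asks how the SYD lines differed from HsMYO within a treatment. All 3 listed GA20OX genes and KAO2 were higher in the SYD lines in both treatments. GA3OX1 and GA3OX2 were higher in the SYD lines on ABA, and GA3OX1 was lower there in ethanol. On ABA 6 of 9 genes were higher and 1 lower in the mean of the SYD lines, where 32.6% of all tested genes were called, 16.8% higher and 15.9% lower. In ethanol 4 were higher and 1 lower, where 32.2% of all genes were called, 17.7% higher and 14.5% lower. Taken singly on ABA, 6 genes were called in SYD1 (26.2% of all genes) and 6 in SYD2 (25.5%), and in ethanol 6 in SYD1 (26.0%) and 5 in SYD2 (25.9%). The median difference of the 9 was 0.43 on ABA and 0.42 in ethanol, beside -0.02 and 0.01 for all tested genes. Both SYD lines are set against the same 2 HsMYO libraries in each treatment, and the values of each line are therefore given side by side and not as repeats of each other.

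GA20OX2 had the largest difference. Its SYD1 libraries had 7.98 and 8.69 CPM and its SYD2 libraries 6.4 and 6.8 CPM on ABA, against 2.72 and 2.44 CPM in HsMYO. In ethanol SYD1 had 7.53 and 8.46 CPM and SYD2 6.97 and 5.36 CPM, against 2.25 and 2.56 CPM in HsMYO. Every SYD library was thus above every HsMYO library. Averaged over the SYD lines it was 2.87-fold higher on ABA (1.52 ± 0.14, adjusted p = 1.6e-06) and 2.89-fold higher in ethanol (1.53 ± 0.15, adjusted p = 2.3e-06), and all 17 alternatives kept both calls. SYD1 stood 1.69 and 1.73 above HsMYO on ABA and in ethanol (log2), and SYD2 1.35 and 1.34.

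GA20OX3 was 2.19-fold higher in the SYD lines on ABA (1.13 ± 0.15, adjusted p = 5e-05) and 2.59-fold higher in ethanol (1.37 ± 0.18, adjusted p = 4e-05), without overlap between the SYD and HsMYO libraries listed above. SYD1 stood 1.55 and 1.56 above HsMYO on ABA and in ethanol, and SYD2 0.71 and 1.18; the call of SYD2 on ABA ended without replicate 1 of SYD2 on ABA (0.61, adjusted p = 0.074) or replicate 1 of HsMYO on ABA (0.57, adjusted p = 0.056), with adjusted p from 1.3e-09 to 0.074 over 17 alternatives. GA20OX1 was 1.35-fold higher on ABA (0.43 ± 0.11, adjusted p = 0.0057) and 1.94-fold higher in ethanol (0.96 ± 0.11, adjusted p = 1.3e-05). Its call on ABA ended without replicate 2 of HsMYO on ABA (0.35, adjusted p = 0.065; 0.0036 to 0.065 over 17 alternatives), and SYD2 alone was not called there (0.24, 95% interval -0.02 to 0.51), whereas SYD1 was (0.63, adjusted p = 0.0014). All 3 listed GA20OX genes were therefore called higher in the mean of the SYD lines under both treatments.

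KAO2 was 1.29-fold higher in the SYD lines on ABA (0.36 ± 0.06, adjusted p = 0.00017) and 1.34-fold higher in ethanol (0.42 ± 0.06, adjusted p = 5e-05), with every SYD library above every HsMYO library of its treatment. KAO1 was not called on ABA (-0.14, 95% interval -0.29 to 0.01) or in ethanol (0.07, -0.08 to 0.23); without replicate 1 of HsMYO on ABA the first was -0.23 (adjusted p = 0.03; 0.03 to 0.79 over 17 alternatives).

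GA3OX1 was 2.0-fold higher in the SYD lines on ABA (1.0 ± 0.13, adjusted p = 4.1e-05) and GA3OX2 1.81-fold higher (0.86 ± 0.07, adjusted p = 1.4e-07). In ethanol GA3OX2 was not called (-0.08, 95% interval -0.21 to 0.05), and GA3OX1 was 1.35-fold lower (-0.44 ± 0.1, adjusted p = 0.0039). The ethanol call of GA3OX1 rested in part on replicate 1 of HsMYO in ethanol, the highest GA3OX1 library, without which it was -0.31 (adjusted p = 0.11; 7.1e-06 to 0.11 over 17 alternatives). The lines taken singly gave -0.46 in SYD1 (adjusted p = 0.011; 0.00013 to 0.13 over 17 alternatives) and -0.42 in SYD2 (adjusted p = 0.017; 0.00044 to 0.19). Each of these calls ended without replicate 1 of HsMYO in ethanol (-0.33 and -0.29) or without replicate 1 of its own line in ethanol (-0.38 and -0.32).

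The GA2OX genes gave no call that held throughout. On ABA GA2OX2 had 2.97 and 3.77 CPM in SYD1 and 2.38 and 2.83 CPM in SYD2, against 4.37 and 3.88 CPM in HsMYO. It was 1.39-fold lower (-0.48 ± 0.16, adjusted p = 0.035; 0.019 to 0.18 over 17 alternatives), a call lost with DESeq2 (-0.45) and without replicate 1 (-0.38) or 2 (-0.55) of HsMYO on ABA, replicate 1 of SYD1 on ABA (-0.38) or replicate 1 of SYD2 on ABA (-0.41). In ethanol GA2OX2 had 4.71 and 3.96 CPM in SYD1 and 3.46 and 2.7 CPM in SYD2, against 3.27 and 2.8 CPM in HsMYO, and was not called (0.26, 95% interval -0.1 to 0.63). GA2OX6 was not called on ABA (-0.46, -1.44 to 0.51) or in ethanol (0.82, 0.06 to 1.59, adjusted p = 0.093; 0.024 to 0.51 over 17 alternatives), the second being called without the low-count filter (0.8) and without replicate 2 of SYD2 in ethanol (1.09). Taken singly, SYD2 was called lower for GA2OX2 on ABA (-0.66, adjusted p = 0.021; 0.0064 to 0.16 over 17 alternatives, lost with DESeq2 (-0.64) and without replicate 1 of HsMYO (-0.57) or replicate 1 (-0.54) or 2 (-0.79) of SYD2 on ABA). SYD1 was called higher for GA2OX6 in ethanol (1.18, adjusted p = 0.04; 0.0051 to 0.26), a call lost in 8 of 17 alternatives (0.82 to 1.31), with DESeq2 and without replicate 1 of HsMYO in ethanol or any 1 library of SYD1 or of SYD2 on ABA.

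Markers of other cells moved with the lines as well. The cortex marker CO2 had 88.4 and 85.6 CPM in SYD1 and 63.8 and 52.4 CPM in SYD2 on ABA, against 28 and 23.1 CPM in HsMYO, and 14.6 and 16.4 CPM and 13.3 and 11.8 CPM in ethanol, against 5.39 and 3.54 CPM. SCR, the other tested root marker, was not called in the mean of the SYD lines on ABA (0.13) or in ethanol (-0.09). Taken singly, SYD1 was called higher for it on ABA (0.22). Summed over the 3 root cortex and endodermis markers, the SYD lines had 115 to 162 CPM and HsMYO 84.0 to 89.2 CPM on ABA, while the ranges overlapped in ethanol (74.5 to 87.6 CPM and 72.8 to 79.8 CPM); CASP1, the endodermis marker, was at 0 in 11 libraries and had 2 counts in the other. The 3 seed coat markers summed to 17.1 to 26.3 CPM in the SYD lines against 29.5 to 31.0 CPM in HsMYO on ABA, and to 27.5 to 33.1 CPM against 51.7 to 55.1 CPM in ethanol, nearly all of it MUM2, with BAN and TT10 at 0 to 5 counts per library. The 4 endosperm markers summed to 3620 to 4940 CPM against 3240 to 3500 CPM on ABA and overlapped in ethanol (2380 to 3620 CPM and 2860 to 4460 CPM), with ZOU at 0 or 1 count. Among the 5 seed markers, 2 were called higher and 1 lower in the mean of the SYD lines on ABA (log2 differences of -1.03 to 2.58). In ethanol 1 was called higher and 0 lower (-0.52 to 1.05). The part of these markers in the differences of the oxidase genes between lines was not tested.

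**Figure D4:**
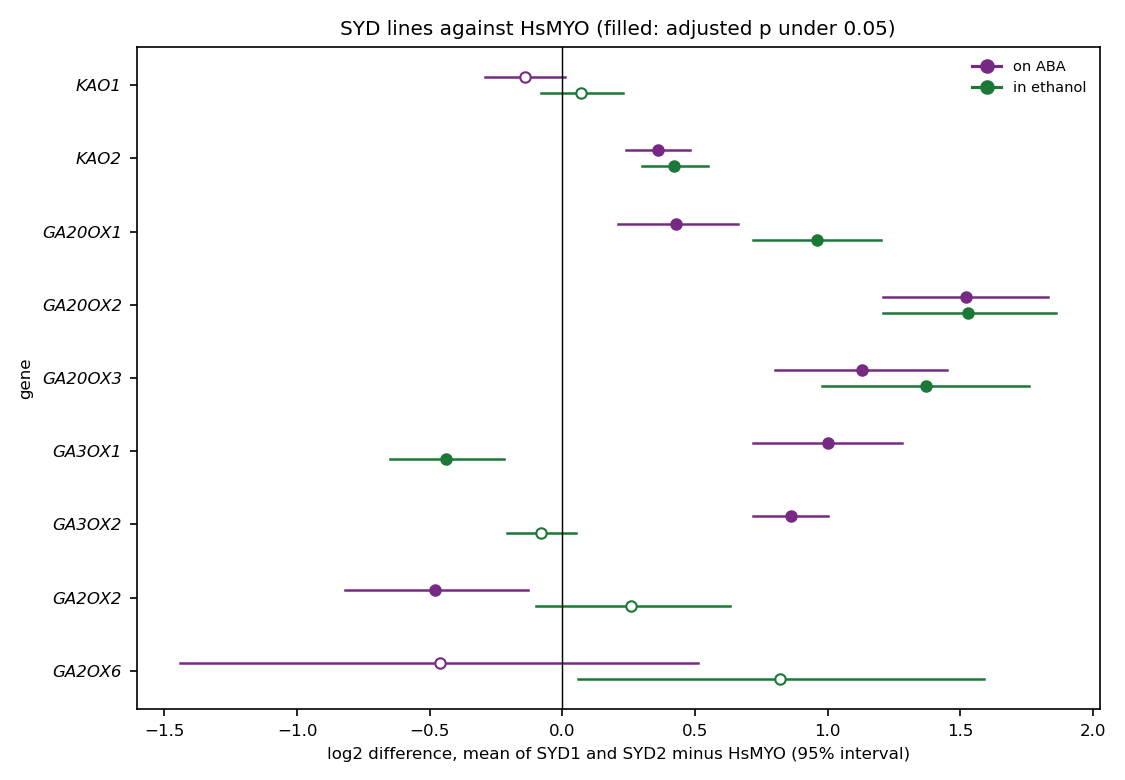
Log2 difference between the mean of SYD1 and SYD2 and HsMYO for the 9 tested genes, on ABA and in ethanol, with 95% intervals of the edgeR fit. Filled points passed an adjusted p of 0.05; the 3 GA20OX genes and KAO2 lie to the right of 0 in both treatments, and GA3OX1 lies to the right on ABA (1.0) and to the left in ethanol (-0.44).

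A further comparison tests whether the ABA response itself differed between the SYD lines and HsMYO. It did for GA3OX1 and GA3OX2, whose decrease on ABA was smaller in the SYD lines, and for no other of the 9 tested genes, whereas 5.14% of all tested genes were called. GA3OX1 differed by 1.44 ± 0.17 (mean response of the SYD lines minus that of HsMYO, log2; adjusted p = 0.00017) and GA3OX2 by 0.94 ± 0.09 (adjusted p = 3e-05). The lines taken singly gave 1.42 in SYD1 (adjusted p = 0.00096) and 1.46 in SYD2 (adjusted p = 0.00056) for GA3OX1, and 0.93 (adjusted p = 0.00018) and 0.95 (adjusted p = 0.00013) for GA3OX2, where 2.84% of all genes were called in SYD1 and 3.7% in SYD2. Over the 16 alternatives the mean differences lay between 1.31 and 1.56 for GA3OX1 and between 0.86 and 1.03 for GA3OX2, and none ended a call. For GA3OX2 in ethanol, SYD2 overlapped HsMYO and SYD1 lay just below it, and neither was called. On ABA both SYD lines were apart from HsMYO for GA3OX2. For GA3OX1 both SYD lines were apart from HsMYO in both treatments, in opposite directions.

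GA20OX2, GA20OX3 and KAO2, which stood above HsMYO in both treatments, were not called for a different ABA response, and KAO1 was not either. The ABA response of GA20OX2 differed by -0.01 (95% interval -0.47 to 0.45). KAO2 differed by -0.06 (-0.23 to 0.11), GA20OX3 by -0.24 (-0.75 to 0.27) and KAO1 by -0.21 (-0.43 to 0.0). GA20OX1, which stood above HsMYO by 0.43 on ABA and 0.96 in ethanol, differed by -0.52 (-0.85 to -0.19, adjusted p = 0.068; 0.05 to 0.29 over 16 alternatives), GA2OX2 by -0.74 (-1.24 to -0.24, adjusted p = 0.089; 0.046 to 0.27) and GA2OX6 by -1.29 (-2.53 to -0.04, adjusted p = 0.25). These last 3 intervals lie below 0, but the genes were not called after adjustment. Exceptions were GA20OX1 with replicate number as a block (-0.52) and, without the low-count filter, GA2OX2 (-0.7) and GA2OX6 in SYD1 taken singly (-1.82). GA20OX1 was also called in SYD2 taken singly (-0.67, adjusted p = 0.0497), a call lost in 15 of 17 alternatives (-0.76 to -0.56, adjusted p from 0.034 to 0.22), among them the fits without any 1 library other than replicate 2 of HsMYO on ABA.

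A last comparison sets the SYD lines against each other. In ethanol 0 of the 9 genes were called between SYD1 and SYD2 with edgeR and 0 with DESeq2, where 0.688% of all tested genes were called with edgeR. At an unadjusted p under 0.05, 2 of the 9 differed there, GA2OX2 by 0.51 and GA20OX2 by 0.39. The share of all tested genes at that unadjusted threshold was not counted in either treatment. With no low-count filter GA20OX3 was called (0.38, adjusted p = 0.036). On ABA 1 of 9 was called, where 0.846% of all genes were, and at an unadjusted p under 0.05 GA20OX1 (0.38) and GA20OX2 (0.34) also were higher in SYD1. GA20OX3 was 1.8-fold higher in SYD1, with 36.8 and 28.2 CPM, than in SYD2, with 19.3 and 16.8 CPM (0.84 ± 0.16, adjusted p = 0.022). That call ended without replicate 1 of SYD1 on ABA (0.64, adjusted p = 0.35) or replicate 1 (0.94, adjusted p = 0.076) or 2 (0.75, adjusted p = 0.32) of SYD2 on ABA, with adjusted p from 5.9e-14 to 0.35 over 17 alternatives. The cortex marker CO2 also was higher in SYD1 than in SYD2 on ABA (0.58, adjusted p = 0.022) and the seed coat marker MUM2 lower (-0.6, adjusted p = 0.0026), and their part in the GA20OX3 difference was not tested. GA3OX1 and GA3OX2 differed between the SYD lines by -0.08 (95% interval -0.38 to 0.22) and -0.01 (-0.17 to 0.14) on ABA and by -0.04 (-0.3 to 0.22) and 0.01 (-0.14 to 0.16) in ethanol.

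Of 15 other gibberellin metabolism genes, 7 passed the low-count filter. On ABA, 3 of the 7 rose in HsMYO, where 26.9% of all tested genes did: ELA1, which encodes a cytochrome P450 that inactivates gibberellins, by 1.86 (adjusted p = 0.00035), KS by 0.45 (adjusted p = 0.0023) and KO by 0.3 (adjusted p = 0.003), the last pair acting before KAO in the pathway. CPS, for the first committed step, had 0.0719 to 0.638 CPM over all libraries and did not pass the test in HsMYO (0.93, adjusted p = 0.16). Against HsMYO, ELA1 stood out among them: it had 6.19 and 7.26 CPM in SYD1 and 5.52 and 5.57 CPM in SYD2 on ABA, against 2.02 and 1.63 CPM in HsMYO. In ethanol it had 5.63 and 3.44 CPM in SYD1 and 4.84 and 5.04 CPM in SYD2, against 0.662 and 0.354 CPM in HsMYO. No SYD library overlapped an HsMYO library in either treatment. ELA1 was 3.34-fold higher in the SYD lines on ABA (1.74 ± 0.2, adjusted p = 1e-05) and 9.37-fold higher in ethanol (3.23 ± 0.28, adjusted p = 5.9e-07), where HsMYO had 24 counts in all. Its ABA response was lower in the SYD lines (-1.49, adjusted p = 0.034; 0.00048 to 0.23 over 16 alternatives), a call lost without replicate 1 (-1.32) of HsMYO on ABA, replicate 2 (-1.09) of HsMYO in ethanol, replicate 1 of SYD1 on ABA (-1.4), replicate 1 (-1.48) or 2 (-1.49) of SYD2 on ABA, or replicate 2 of SYD2 in ethanol (-1.47). The only other calls against HsMYO were KO in ethanol (0.28, adjusted p = 0.0035; lost without replicate 2 of HsMYO in ethanol, 0.23, adjusted p = 0.07) and GA3OX4 on ABA. Thus 2 of the 7 were called in each treatment, where 32.6% of all genes were on ABA and 32.2% in ethanol. The median difference of the 7 was 0.03 on ABA and 0.01 in ethanol, beside -0.02 and 0.01 for all tested genes.

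GA3OX4, a further gene of the activating step, lies 928 bases from GA3OX2. It had 3.02 and 2.76 CPM in SYD1 and 3.62 and 4.52 CPM in SYD2 on ABA, against 1.01 and 1.37 CPM in HsMYO, with no overlap (1.53 ± 0.26, adjusted p = 0.00036). In ethanol it had 1.41 and 1.22 CPM in SYD1 and 1.14 and 2.37 CPM in SYD2, against 1.81 and 1.3 CPM in HsMYO, where the lines overlapped. Unlike GA3OX1 and GA3OX2, it rose on ABA in SYD1 (1.13, adjusted p = 0.0087; lost without replicate 2 of SYD1 in ethanol, 1.03, adjusted p = 0.062) and SYD2 (1.16, adjusted p = 0.0027) and was not called in HsMYO (-0.38, adjusted p = 0.34). The difference in its response was 1.53 (adjusted p = 0.032; 9.9e-05 to 0.21 over 16 alternatives). That call was lost in 7 of the 16, without replicate 1 of HsMYO on ABA (1.32), replicate 1 of HsMYO in ethanol (1.29), replicate 1 (1.53) or 2 (1.57) of SYD1 on ABA, replicate 1 (1.59) or 2 (1.48) of SYD1 in ethanol, or replicate 2 of SYD2 on ABA (1.45).

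The 10 genes of gibberellin perception, the GID1 receptors, the DELLA repressors and the F-box proteins that remove DELLAs, were all tested. In HsMYO 6 rose and 2 fell on ABA, where 26.9% of all tested genes rose and 27.1% fell. The largest changes were those of GID1B (-1.67, adjusted p = 5.3e-06), RGL2 (1.4, adjusted p = 3.5e-10), RGL3 (1.01, adjusted p = 3.8e-08) and RGL1 (-0.83, adjusted p = 2.1e-05). Against HsMYO, 2 were higher and 2 lower in the SYD lines on ABA, and 2 were higher and 1 lower in ethanol, with medians of -0.05 and 0.15, beside 32.6% and 32.2% of all genes called and medians of -0.02 and 0.01. The DELLA gene GAI was lower in the SYD lines on ABA (-0.81, adjusted p = 1.1e-06) and in ethanol (-0.6, adjusted p = 4.4e-05), with 43.3 to 51.1 CPM in the 4 SYD libraries against 85.5 and 78.4 CPM in HsMYO on ABA. RGL1 was higher on ABA (0.81, adjusted p = 2.7e-05) and RGL2, the DELLA that chiefly restrains germination, lower (-0.33, adjusted p = 0.0009). In ethanol RGL1 was higher by 0.33 (adjusted p = 0.014; 0.0061 to 0.15 over 17 alternatives; lost without replicate 2 of HsMYO, 0.27, or replicate 1 of SYD1, 0.26). The F-box gene SLY1 was higher by 0.24 on ABA (adjusted p = 0.025; 0.0093 to 0.17) and 0.3 in ethanol (adjusted p = 0.0093; 0.0029 to 0.14). The first call was lost with DESeq2 (0.26) and without replicate 1 of HsMYO (0.17), replicate 2 of SYD1 (0.23) or replicate 2 of SYD2 (0.21) on ABA, and the second without replicate 1 of HsMYO in ethanol (0.23). For a different ABA response 0 of the 10 were called with edgeR and 0 with DESeq2. At an unadjusted p under 0.05, where the share of all tested genes was not counted, 3 differed (RGL1, RGL2 and GID1A). RGL1 (0.48) and RGL2 (-0.31) were called with replicate number as a block, and 1 gene with no low-count filter. Some fits without 1 library also gave a call.

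Of 16 genes for regulators of these oxidase genes in seeds, 15 were tested. In HsMYO 6 rose and 4 fell on ABA, where 54.0% of all genes were called, led by SOM (3.42, adjusted p = 4.5e-11), a zinc-finger repressor of germination, and ABI5 (2.86, adjusted p = 1.5e-12), and by decreases of RVE1 (-1.49, adjusted p = 1.8e-05), a repressor of GA3OX2, and BME3 (-1.39, adjusted p = 1.8e-10), a GATA factor that favours germination. Against HsMYO, 3 were higher and 3 lower in the SYD lines on ABA, and 3 were higher and 7 lower in ethanol, with medians of 0.08 and -0.15, beside 32.6% and 32.2% of all genes called. Without replicate 1 of HsMYO in ethanol the calls of SOM, CHO1, JMJ22 and PHYB there ended, which left 2 higher and 4 lower. On ABA the largest were BME3 (0.7, adjusted p = 8.8e-07), PIF1 (0.46, adjusted p = 6.7e-05), GAF1 (-0.37, adjusted p = 0.041; lost in 10 of 17 alternatives, -0.42 to -0.31, adjusted p from 0.028 to 0.2) and ABI5 (-0.36, adjusted p = 0.0012). In ethanol they were AHL25 (-0.72, adjusted p = 0.0033), SOM (-0.71, adjusted p = 0.001; 2.1e-17 to 0.051 over 17 alternatives, with -0.33 without replicate 1 of HsMYO), GAF1 (-0.56, adjusted p = 0.0038) and ABI5 and ABI3 (-0.52 each, adjusted p = 0.00022 and 0.00016). The GAF1 call on ABA was lost with DESeq2, with RLE scaling, and without any 1 of the 6 libraries on ABA or the 2 HsMYO libraries in ethanol. AHL25 is an AT-hook protein, GAF1 a partner of DELLA proteins, and ABI3 and ABI5 are transcription factors of ABA signalling in seeds. The ABA response differed for ABI3 (0.65, adjusted p = 0.0032) and BME3 (0.4, adjusted p = 0.012; 0.00079 to 0.07 over 16 alternatives; lost without replicate 2 of HsMYO on ABA, 0.35, or in ethanol, 0.36). BME3 fell on ABA in all 3 lines, and by less in the SYD lines, as did GA3OX1 and GA3OX2.

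Over the 12 libraries, the genes whose log2 CPM followed GA3OX1 most closely were UMAMIT20, of a family of amino acid transporters (Pearson r = 0.9849), AT1G12100 (0.9799) and FAO3, for a fatty alcohol oxidase (0.9794). Those closest to GA3OX2 were ATK5, for a kinesin (0.9928), HFR1, for a bHLH protein of light signalling (0.9783), and AT5G60520 (0.9775), while GA3OX1 and GA3OX2 correlated with each other at 0.9412. These coefficients describe 6 groups of 2 libraries that share treatments and lines. ATK5 had means of 10.3, 10.2 and 6.51 CPM in SYD1, SYD2 and HsMYO on ABA and of 12.2, 12.1 and 12.8 CPM in ethanol. UMAMIT20 had means of 109, 113 and 67.8 CPM on ABA and of 149, 167 and 189 CPM in ethanol, with HsMYO lowest on ABA and highest in ethanol as for GA3OX1.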

How the data were processed

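The authors deposited raw counts per gene, 1 column per library; the submitters' processing notes name Trimmomatic 0.39, STAR 2.7.10a and TAIR10, without order or settings. Per the labels' protocols, libraries came from a stranded mRNA kit and were read as 100 bp pairs. No source used here gives the counting program, its strand setting or the annotation, so overlapping genes such as KAO1 carry an unmeasured error. All 12 count columns were used. With R 4.3.3 and edgeR 4.0.16, genes were kept by filterByExpr (minimum count 10; 19612 of 36795), scaled by TMM and fitted by quasi-likelihood with 1 mean per group over 12 libraries (residual df 6, prior df 9.2, common BCV, the between-replicate coefficient of variation, 6.27%). Tests were 2-sided, with Benjamini-Hochberg adjustment over all tested genes; an adjusted p under 0.05 was a call. Replicates differed by more than counting error (chi-square over degrees of freedom 2.4 to 13.3). This ratio was highest in HsMYO on ABA (13.3) and next in SYD2 in ethanol (9.03), while the fit shared its spread over all groups. The fit was tested on simulated counts. TPM used RefSeq TAIR10.1 exon lengths, found for 36632 entries. The genes were matched by identifier; the files hold no coordinates.

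The alternatives were DESeq2 1.42.0, RLE scaling, no low-count filter, only the groups compared, replicate number as a block, and each library left out. From the other lists, CPS, KS, KO and up to 4 called genes per list with the largest changes were named, and the 3 genes best correlated with GA3OX1 and with GA3OX2; ELA1 and GA3OX4 values in further contrasts were added after seeing them, as were the alternatives for listed genes outside the 10. Members and lists were chosen with earlier results of these data known. 1 promoter sequence is not reported here.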

Additional observations from a re-analysis of the deposited data

Results flagged for a closer look

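The ABA responses of GA3OX1 and GA3OX2 differed between the SYD lines and HsMYO in a direct test of the difference. For GA3OX1, an enzyme gene of the activating step, it was 1.44 (mean of SYD1 and SYD2 minus HsMYO, log2; edgeR adjusted p = 0.00017), with decreases on ABA of 0.86 in SYD1, 0.82 in SYD2 and 2.28 in HsMYO. For GA3OX2 it was 0.94 (edgeR adjusted p = 3e-05), with decreases of 0.33, 0.3 and 1.25. In ethanol GA3OX1 already stood lower in the SYD lines (-0.44), so that part of its difference lies in that treatment. That ethanol call rested in part on replicate 1 of HsMYO, without which the difference was -0.31.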

How the results depend on the processing

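No called value of the 9 tested oxidase genes changed sign under any alternative, and 52 uncalled values did (-0.18 to 0.36). Leaving out 1 library at a time, the number of the 9 called for ABA ran from 6 to 6 in SYD1, 3 to 7 in SYD2 (3 without replicate 1 of SYD2 on ABA, 4 without replicate 1 in ethanol, against 7) and 5 to 7 in HsMYO. For the mean of the SYD lines against HsMYO it ran from 5 to 7 on ABA and 4 to 6 in ethanol. For SYD1 it ran from 6 to 6 and 4 to 6, and for SYD2 from 4 to 6 and 4 to 5. For the ABA response it ran from 2 to 2 for the mean, 2 to 2 for SYD1 and 2 to 3 for SYD2. Between SYD1 and SYD2 it ran from 0 to 1 on ABA (1 with all libraries) and 0 to 0 in ethanol, where no low-count filter gave 1 call in place of 0. The cause was not tested. Shares of all tested genes called in the alternative fits were not set beside these counts. A change in a count may therefore not be particular to these genes. TPM from the longest transcript moved 14 of the group means by more than their SD.

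Replicate numbers were not taken to pair the libraries: residual correlations between same-numbered libraries ran from -0.034 to 0.15 (median 0.067, 15 group pairs). With replicate number as a block, the ABA change of GA2OX2 in HsMYO passed the test (0.45, adjusted p = 0.049), as did the difference in ABA response of GA20OX1 (-0.52, adjusted p = 0.05), and no other call of the 9 genes changed. The block gave 5 calls in place of 3 among the perception genes between the SYD lines and HsMYO in ethanol. The depth limits GA2OX1, with 0 to 5 counts per library, and GA2OX6, with 7 to 42.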
